A study of Mus musculus with 38 samples.

Results

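Expression of 7 genes that mark the IL-17-producing Th17 lineage, Rora, Ahr, Il17a, Il17f, Il22, Il23r and Ccr6, was followed through the Th1 and Th2 cells of this series. They were chosen for their known roles in that lineage, with earlier results of these data known. They were taken by symbol from the deposited gene tables and are 7 of the 23700 entries in each table. Th17 cells are the third major effector type of CD4 T cell beside Th1 and Th2 cells. The nuclear receptor RORα is among the factors that direct the lineage. The cells release IL-17A, IL-17F and IL-22, cytokines that act on epithelial and stromal cells at barriers, and they respond to IL-23. AHR, a receptor for dioxins and for tryptophan metabolites, is needed for much of the IL-22 that T cells make. No Th17 culture was among the RNA libraries analysed here, so each level below is that of a Th17 gene in cells driven to another fate.

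RNA was measured in 14 libraries of CD4 T cells that were sorted as naive cells from C57BL/6J mice and polarised in culture; the series compares what STAT4, STAT6, T-bet and GATA3 do in these lineages. Cultures without a vector lasted 7 days and were restimulated for 2 h through CD3 and CD28, with IL-4 for Th2 and IL-12 for Th1: STAT6 KO Th2 (Stat6<tm1>), WT Th2, STAT4 KO Th1 (STAT4<tm1>), T-bet KO Th1 (Tbet<tm1>) and WT Th1 cells, the last with 2 libraries and each other group with 1. The vector cultures, 1 library per group, carried a pMY-IRES-hNGFR retrovirus without an insert (control vector) or with a factor: STAT6 KO and WT Th2 cells with the GATA3 or the control vector, grown with anti-IFNG, IL-4 at 10 ng/mL and IL-2 at 50 U/mL, and STAT4 KO and WT Th1 cells with the T-bet or the control vector, grown with anti-IL-4, IL-12 at 10 ng/mL and IL-2 at 50 U/mL. One label gives 5 days for all vector cultures and another gives 7 days and the same 2 h restimulation for the Th1 ones; restimulation is not given for the Th2 ones. The labels do not say whether transduced cells were selected, or whether each library had its own culture or animal, and the p-values therefore measure only a spread between libraries that may be technical.

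Libraries matched their labels where the genes could show it. Tbx21, which encodes T-bet, was at 4.18 FPKM (a fragment number divided by transcript length and by library size) in T-bet KO Th1 cells, against 88.4 and 153 FPKM in WT Th1 cells, and at 245 FPKM with the T-bet vector, against 61 FPKM with the control vector in WT cells. Gata3 was at 589 FPKM with the GATA3 vector, against 95.7 FPKM with the control vector in WT Th2 cells. Stat4 was at 17.5 FPKM in STAT4 KO Th1 cells, against 60.8 and 15.1 FPKM in WT Th1 cells, and Stat6 at 34.6 FPKM in STAT6 KO Th2 cells, against 35.6 FPKM in WT Th2 cells; whole-gene values say little about which exons a targeted allele lacks. Cd4 lay between 63.4 and 235 FPKM. Of the CD8 genes, Cd8a was at or below 0.21 FPKM and Cd8b1 between 1.8 and 5.65 FPKM. A pair of libraries, WT Th1 replicate 2 and T-bet KO Th1, lay apart from the rest: their log2(FPKM + 1) values correlated at r = 0.976 with each other and at 0.676 to 0.801 with the other 12 libraries, which correlated at 0.856 to 0.99 among themselves. Results are therefore also given from a fit over those 12 libraries. Markers of other cells that carry Th17 genes were at differing levels. The 3 gamma delta T cell markers in the tables (of 7 listed) summed to 0.00353 to 1.02 FPKM in Th2 libraries and 0 to 0.201 FPKM in Th1 libraries, and Ncr1, an NK and innate lymphoid receptor, reached at most 0.0236 FPKM. Of the 10 innate lymphoid and NK genes, 4 were tested: Il1rl1, Tnfsf11 and Tox, which T cells also express, were above 1 FPKM in all 14 libraries, and Kit in 8. The list summed to 141 to 314 FPKM in Th2 libraries and 83 to 361 FPKM in Th1 libraries. The B cell list summed to 0.348 to 1.46 FPKM and the myeloid list to 1.49 to 11 FPKM, highest in WT Th2 cells without a vector. Emr1 was at 8.42 FPKM there and at most 0.505 FPKM elsewhere. Itgax reached 3.34 FPKM in WT Th2 cells with the GATA3 vector, and Cd68 lay between 1.01 and 2.97 FPKM. What cells carried these myeloid genes was not tested.

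The promoters of the 2 IL-17 genes are shown because RORα binds the letters AGGTCA, and because the genes, neighbours on chromosome 1, were at very different levels. In the mm9 build used by the tables Il17a lies at chr1:20720986-20724577 on the forward strand and Il17f at chr1:20767230-20774351 on the reverse strand, with 42652 bases between them. The promoters, from RefSeq on GRCm38.p6, run from 250 bases before to 50 bases after the start and read 5′ to 3′ along the gene, chr1:20730655-20730954 (forward) for Il17a and chr1:20784221-20784520 (reverse) for Il17f. Capitals mark AGGTCA or its reverse complement TGACCT.
Il17a: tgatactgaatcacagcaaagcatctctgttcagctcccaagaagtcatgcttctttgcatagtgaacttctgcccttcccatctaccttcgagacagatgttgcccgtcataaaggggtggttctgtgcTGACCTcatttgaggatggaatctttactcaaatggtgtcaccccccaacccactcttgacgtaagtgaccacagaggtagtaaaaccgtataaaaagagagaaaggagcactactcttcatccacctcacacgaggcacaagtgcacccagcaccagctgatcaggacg
Il17f: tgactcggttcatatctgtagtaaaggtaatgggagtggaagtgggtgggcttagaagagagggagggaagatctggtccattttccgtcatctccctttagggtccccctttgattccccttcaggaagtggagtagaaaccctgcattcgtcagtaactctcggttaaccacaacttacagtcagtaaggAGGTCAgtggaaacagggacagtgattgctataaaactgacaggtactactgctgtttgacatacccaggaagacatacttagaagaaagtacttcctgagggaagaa
Each holds 1 match, which begins 120 bases before the start of Il17a and 58 bases before that of Il17f. The table held promoters of 6 of the 7 genes, Ahr being the exception. On either strand AGGTCA was found also in the promoter of Il23r (2 matches) and in 1 of 2 promoters of Ccr6 and not in those of Rora or Il22, against 16.3% of all 32851 promoters of this length. The GATA letters AGATAA were found in the promoter of Il22 and in 1 of Ccr6 (11.2% of all promoters) and in neither IL-17 promoter; TGATAA was found in that of Il22 alone among the members (9.05%). The STAT letters TTCNNNGAA occurred in 1 promoter of Ccr6 alone (8.3%), and its form with 1 more N (6.95%) and the T-box letters TCACACC (3.98%) occurred in none of them. These matches describe letters in a window and no more.

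Of the 7 genes 4, Rora, Ahr, Il17f and Il22, reached at least 1 FPKM in at least 2 libraries and were tested; Il17a, Il23r and Ccr6 did not. Differences are of log2(FPKM + 1), with standard errors, from 1 limma model with additive terms over 11121 genes and all 14 libraries; calls were made where the Benjamini-Hochberg adjusted p, taken over all those genes, was under 0.05. The bounds given with a value are those Cufflinks lists and cover counting error only. Matched pairs are not independent, as both WT Th1 libraries without a vector are set against the same partners. Of the genes tested, 40.8% differed at least 2-fold in FPKM + 1 between WT Th2 and WT Th1 replicate 2, against 14.5% with replicate 1. For WT Th1 with the control vector the shares were 40% and 17.6%.

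**Figure D1:**
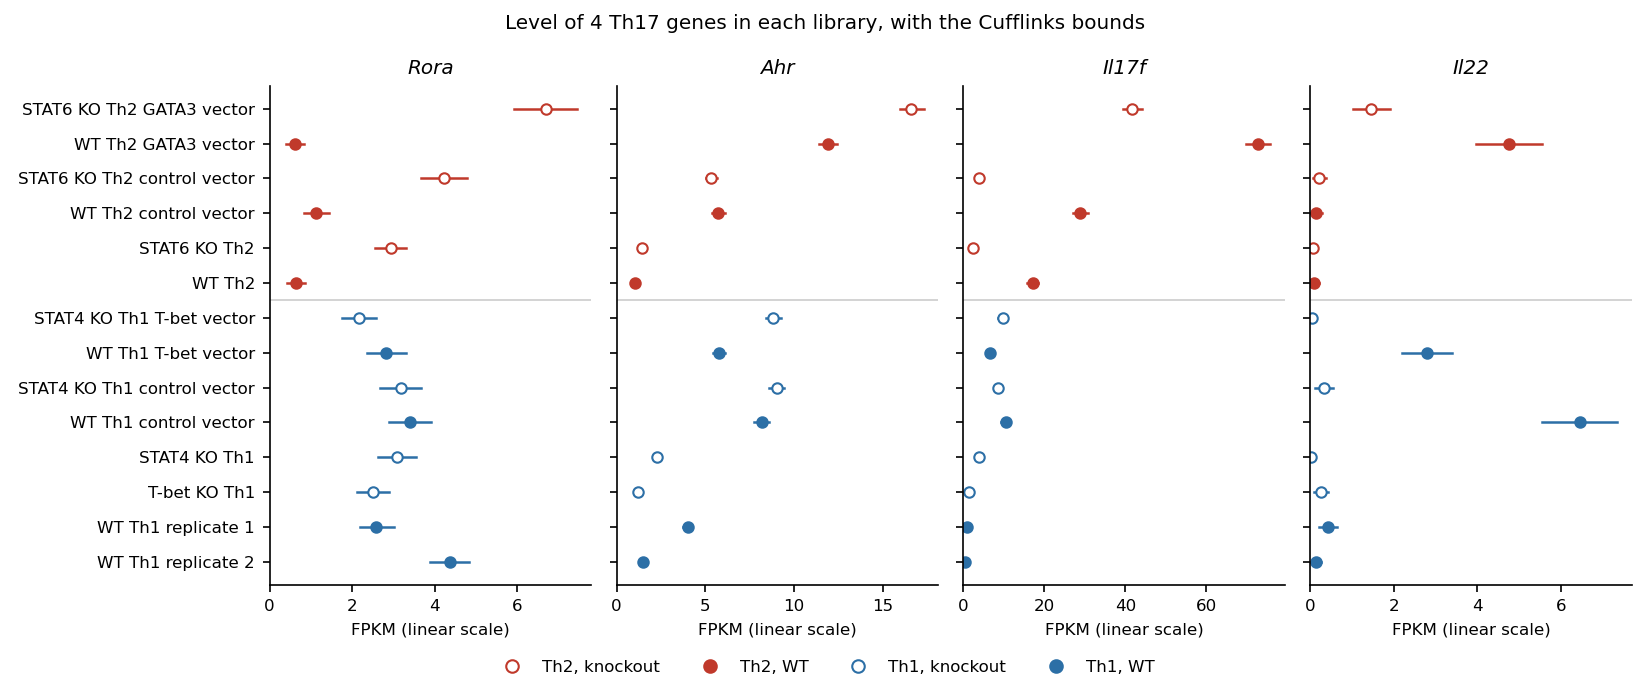
FPKM (x axis, linear) of Rora, Ahr, Il17f and Il22 in each of the 14 libraries (y axis), with horizontal lines for the Cufflinks bounds; red is Th2, blue is Th1, open circles are knockout cells. The 3 WT Th2 libraries have the lowest Rora, and the 2 GATA3 vector libraries have the highest Ahr and Il17f.

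Rora, which encodes RORα, was lowest in WT Th2 cells. In STAT6 KO Th2 cells it was at 2.93 FPKM without a vector, 6.69 FPKM with the GATA3 vector and 4.23 FPKM with the control vector. In WT Th2 cells it was at 0.629 FPKM without a vector, 0.617 FPKM with the GATA3 vector and 1.13 FPKM with the control vector. In WT Th1 cells it was at 2.59 and 4.36 FPKM without a vector (3.48 ± 1.25, SD, n = 2), 2.83 FPKM with the T-bet vector and 3.40 FPKM with the control vector. The 3 WT Th2 libraries were thus the lowest of all 14, the next being STAT4 KO Th1 cells with the T-bet vector at 2.16 FPKM, whose bounds (1.75 to 2.57 FPKM) lay above those of the highest WT Th2 library (0.827 to 1.44 FPKM).

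The difference between lineages was called. Rora fell in WT Th2 cells relative to WT Th1 cells (-1.45 ± 0.25 on the log2 scale, adjusted p = 0.0211, limma), where 3.21% of the genes tested were called. Here and below, the fitted difference between lineages is that of WT cells, because the knockouts have terms of their own in the model. Rora was lower in all 3 matched pairs of libraries, at 0.243 and 0.144 times the 2 WT Th1 libraries without a vector and 0.333 times WT Th1 cells with the control vector. The call was held in the fit over 12 libraries (-1.31, adjusted p = 0.0273). It was lost without WT Th2 (adjusted p = 0.112), without WT Th1 with the control vector (0.0526) and without STAT4 KO Th1 with the control vector (0.0507), at differences of -1.51, -1.55 and -1.46. Kit, of the innate lymphoid list, fell in the same comparison (-2.37 ± 0.36, adjusted p = 0.012, limma), with 0.0667 to 1.3 FPKM in Th2 libraries and 0.653 to 10.8 FPKM in Th1 libraries. It was 1 of 4 tested genes of that list called there, and its part in the Rora difference was not tested. With bulk RNA, fewer cells that carry Rora and less Rora per cell cannot be told apart.

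Rora rose in STAT6 KO Th2 cells. It was 1.61 ± 0.24 higher than in WT Th2 cells (adjusted p = 0.0211, limma), where 0.962% of the genes tested were called, and 98.2% of all genes tested had a smaller change in size. The ratio of STAT6 KO to WT was 4.65 without a vector, 3.74 with the control vector and 10.8 with the GATA3 vector, and the bounds did not overlap in any of the 3 pairs. The call was held over 12 libraries (1.61, adjusted p = 0.0181) and lost in turn without WT Th2 (0.0642), STAT6 KO Th2 (0.0749), STAT4 KO Th1 with the control vector (0.0592), WT Th2 with the control vector (0.0544), STAT6 KO Th2 with the control vector (0.132), WT Th2 with the GATA3 vector (0.0772) and STAT6 KO Th2 with the GATA3 vector (0.0774), with differences from 1.28 to 1.80. The Rora level of STAT6 KO Th2 cells, 2.93 to 6.69 FPKM, overlapped that of all Th1 cells, 2.16 to 4.36 FPKM. The call without STAT6 and the call between lineages use the same 3 WT Th2 libraries and are not independent results.

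With the GATA3 vector Rora was at 0.545 times the control vector in WT Th2 cells, with overlapping bounds, and at 1.58 times in STAT6 KO Th2 cells, with bounds apart. The test of that difference, the interaction of STAT6 KO with the GATA3 vector, gave 0.97 ± 0.47 (adjusted p = 1, limma), and 0 of 11121 genes were called for it, with 176 at an unadjusted p under 0.05. Loss of STAT4 (-0.17 ± 0.23, adjusted p = 0.715), loss of T-bet (-0.28 ± 0.35, 0.631) and the T-bet vector (-0.40 ± 0.28, 1) gave no call for Rora. In STAT4 KO Th1 cells it was at 3.08 FPKM without a vector, 2.16 FPKM with the T-bet vector and 3.18 FPKM with the control vector, and in T-bet KO Th1 cells at 2.51 FPKM. The T-bet KO level was 0.575 times WT Th1 replicate 2, with bounds apart, and 0.966 times replicate 1, with overlapping bounds.

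Ahr separated the libraries by culture. In the 8 vector cultures it ran from 5.35 to 16.6 FPKM and in the 6 cultures without a vector from 1.02 to 4.01 FPKM, with no overlap. It was at 5.35 FPKM in STAT6 KO Th2 and 5.73 FPKM in WT Th2 cells with the control vector, against 1.44 and 1.02 FPKM in the same genotypes without a vector. In Th1 cells it was at 9.02 FPKM in STAT4 KO and 8.18 FPKM in WT cells with the control vector, against 2.30 FPKM in STAT4 KO and 4.01 and 1.47 FPKM in WT cells without one. The fitted difference was 1.5 ± 0.22 (adjusted p = 0.00192, limma), in a comparison in which 31.5% of the genes tested were called and the median difference of all genes was 0.16, so a call there was common. Ahr was higher in 5 of 5 pairs, by 2.04 to 5.63 times. Vector and days of culture (5 against 7 in a label) change together between these cultures and cannot be told apart. Another label gives the Th1 vector cultures 7 days and 2 h of restimulation, as in those without a vector. Cytokine doses are not given without a vector, nor restimulation for Th2 vector cultures, and whether they differ is not known.

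The highest Ahr levels were those of the GATA3 vector, 16.6 FPKM in STAT6 KO and 11.9 FPKM in WT Th2 cells, against 5.35 and 5.73 FPKM with the control vector. The pairs gave ratios of 3.11 and 2.07 with bounds apart, and the fitted difference of 1.23 ± 0.30 was not called (adjusted p = 0.139, limma; 1.05% of genes called); without WT Th1 replicate 1 it was (1.16, 0.0484). Ahr in Th2 against Th1 cells gave -0.64 ± 0.28 (adjusted p = 0.249), although it was lower in 3 of 3 pairs, and the WT Th1 libraries themselves differed 2.73-fold. With the T-bet vector Ahr was at 8.84 FPKM in STAT4 KO and 5.76 FPKM in WT Th1 cells, a difference from the control vector of -0.26 ± 0.30 (adjusted p = 1), in a comparison in which 0 of the genes tested (0%) were called and 1.35% had an unadjusted p under 0.05. T-bet KO Th1 cells held 1.2 FPKM, a difference from WT of -0.57 ± 0.38 (adjusted p = 0.387).

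Of 15 genes of the AHR pathway 9 were tested, and none passed in the lineage and knockout comparisons; their median in Th2 against Th1 cells was -0.17, against -0.04 over all genes tested. Arnt, its main dimer partner, stayed between 5.22 and 11.2 FPKM. Its relative Arnt2 was at 4.34 FPKM in STAT6 KO and 1.75 FPKM in WT Th2 cells with the GATA3 vector and at or below 0.0204 FPKM in each of the other 12 libraries. It was the 1 gene of the list called with the GATA3 vector (1.92 ± 0.23, adjusted p = 0.00731, limma). Arnt2 passed the filter only through the GATA3 vector libraries, so that call is not independent of the filter. In vector culture 3 of the 9 were called, where 31.5% of all genes tested were: the chaperone genes Hsp90ab1 (0.95 ± 0.16) and Ptges3 (0.88 ± 0.11) rose, and Tiparp, a target of AHR that encodes an inhibitor of it, fell (-1.18 ± 0.33). Cyp1a1, the best known AHR target, reached at most 0.241 FPKM, in STAT6 KO Th2 cells with the GATA3 vector. Nqo1, of the same list, was at 13 FPKM in STAT6 KO and 5.8 FPKM in WT Th2 cells with the GATA3 vector. With the control vector it was at 2.31 and 0.792 FPKM, and the fitted difference was not called (1.63 ± 0.66, adjusted p = 0.518, limma). WT Th1 cells with the control vector held 8.9 FPKM of Nqo1.

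Il17f was the most abundant of the Th17 cytokine genes and was highest in Th2 cells. WT Th2 cells held 17.1 FPKM without a vector, 72.7 FPKM with the GATA3 vector and 28.9 FPKM with the control vector. WT Th1 cells held 1 and 0.488 FPKM without a vector (0.745 ± 0.363, SD, n = 2), 6.45 FPKM with the T-bet vector and 10.4 FPKM with the control vector. Each WT Th2 library was above every Th1 library, and the ratios in the matched pairs were 17.1 and 35.1 without a vector and 2.77 with the control vector. The fitted difference of 2.28 ± 0.52 missed the threshold (adjusted p = 0.0534, limma); it passed without WT Th1 with the control vector (2.86, 0.0348), without either GATA3 vector library (2.58, 0.0444 each) and after quantile normalization (0.0462). Over 12 libraries it was 1.99 (0.0789).

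Without STAT6, Il17f was lower in each of 3 pairs. STAT6 KO Th2 cells held 2.27 FPKM without a vector, against 17.1 FPKM in WT Th2 cells, and 3.73 FPKM with the control vector, against 28.9 FPKM in WT Th2 cells. With the GATA3 vector STAT6 KO cells held 41.7 FPKM, against 72.7 FPKM in WT cells. The ratios of STAT6 KO to WT were thus 0.133, 0.129 and 0.574, with bounds apart in all 3, and the fitted difference was -1.97 ± 0.50 (adjusted p = 0.12, not called).

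The GATA3 vector libraries were the 2 highest for Il17f. The GATA3 vector gave 11.2 times the control vector in STAT6 KO cells and 2.52 times in WT cells; the fitted difference was 1.87 ± 0.57 (adjusted p = 0.274) and the interaction with STAT6 KO 1.78 ± 1 (adjusted p = 1), so neither was called. In vector culture Il17f was higher in 5 of 5 pairs, by 1.65 to 21.4 times. The 21.4 was against WT Th1 replicate 2, which lay apart, and the same vector library gave 10.4 against replicate 1. The fitted difference was called (1.36 ± 0.41, adjusted p = 0.0357, limma). That call was lost over 12 libraries (1.19, 0.0522), with upper-quartile or quantile scaling, which moved the median of all genes from 0.16 to 0.01, and without any 1 of 9 libraries. These were WT Th1 with the control vector (0.86, 0.149), and, with adjusted p between 0.0534 and 0.0857, both WT Th1 libraries without a vector, STAT4 KO Th1, STAT6 KO Th2, STAT4 KO Th1 with the control vector, STAT4 KO and WT Th1 with the T-bet vector and WT Th2 with the control vector.

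Loss of STAT4 or T-bet gave no call for Il17f. STAT4 KO Th1 cells held 3.85 FPKM, against 1 and 0.488 FPKM in WT Th1 cells, but with the control vector they held 8.52 FPKM, against 10.4 FPKM in WT cells, and the fitted difference was 0.75 ± 0.47 (adjusted p = 0.457; 0.728% of genes called). With the T-bet vector they held 9.71 FPKM, against 6.45 FPKM in WT cells. T-bet KO Th1 cells held 1.35 FPKM, which is 1.35 times WT Th1 replicate 1, with overlapping bounds, and 2.77 times replicate 2, with bounds apart. The fitted difference had the other sign (-0.05 ± 0.71, adjusted p = 0.974), and without WT Th1 replicate 2 it was -0.43 (0.66). In that comparison 2 genes (0.018%) were called over all libraries and 5421 (48.7%) without WT Th1 replicate 2, the library that lay apart together with T-bet KO; no member was called in either fit.

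**Figure D2:**
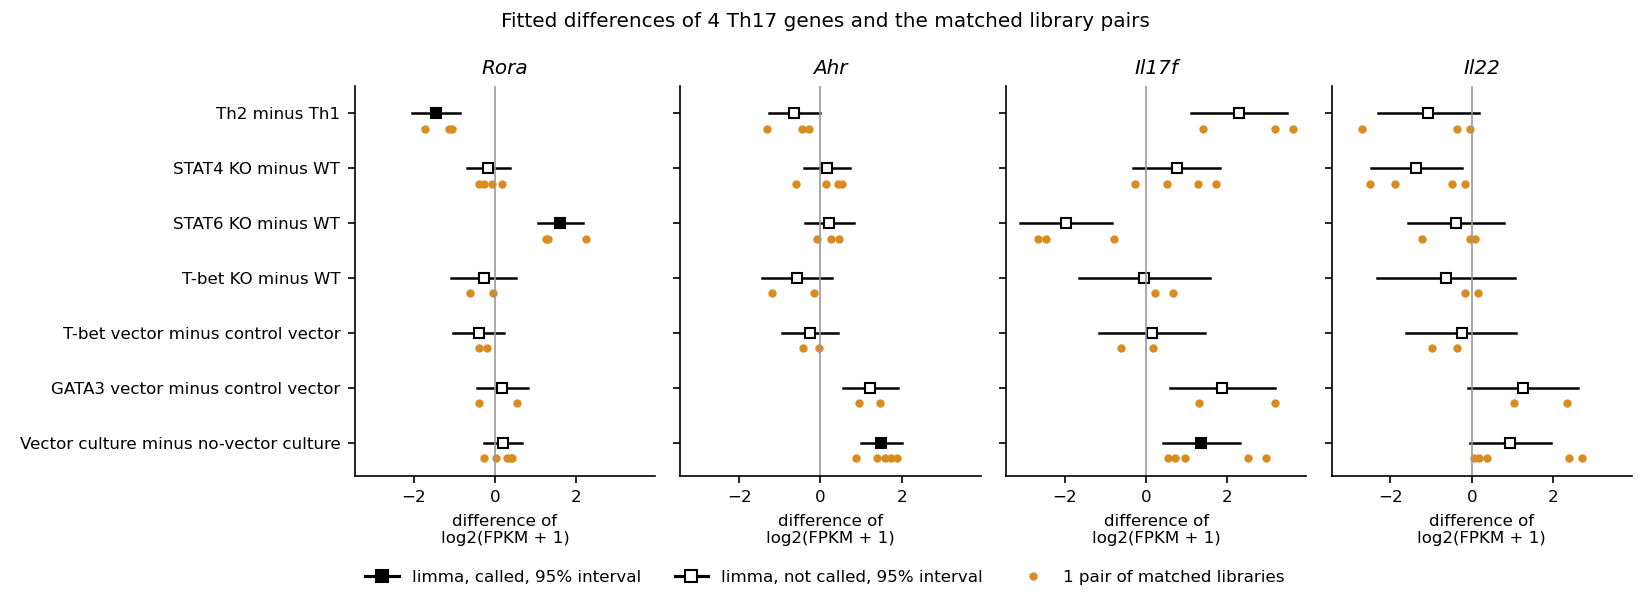
Differences of log2(FPKM + 1) (x axis) of Rora, Ahr, Il17f and Il22 in the 7 comparisons (y axis). Squares and lines are limma estimates with 95% intervals, filled where called, and orange points are single pairs of matched libraries. Rora lies at -1.45 in Th2 minus Th1 and at 1.61 in STAT6 KO minus WT.

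Il17a, the signature cytokine of the Th17 lineage, was near 0 beside Il17f. It was listed at 0 in 9 of the 14 libraries. The width of the Cufflinks bounds corresponds to 4 fragments in WT Th2 cells (0.114 FPKM) and 2 in WT Th2 cells with the control vector (0.0615 FPKM). In Th1 cells it corresponds to 6 fragments in WT cells with the control vector (0.167 FPKM), 2 in WT cells with the T-bet vector (0.0579 FPKM) and 2 in T-bet KO cells (0.046 FPKM). Where it was listed at 0, a count of 3 fragments would allow up to 0.0542 to 0.0954 FPKM. In WT Th2 cells with the GATA3 vector, where Il17f was at 72.7 FPKM, Il17a was listed at 0. The coding sequences of Il17f and Il17a are 60.8% identical over 498 aligned columns, and no stretch of 100 bases is shared by their transcripts. FPKM is per length, so the 2 genes can be set side by side, and Il17f was above Il17a in all 14 libraries.

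Il22 reached 1 FPKM in 4 of the 14 libraries, while its lower bound was above 0 in 9. Its reads are hard to assign, as a near copy, Iltifb, lies on the same chromosome. In mm9 Il22 is at chr10:117642020-117647102 on the forward strand and Iltifb at chr10:117726686-117732094 on the reverse strand, 79583 bases apart. Their coding sequences differ at 9 of 540 positions, and 20.5% of the 100-base windows of the Il22 transcript are found unchanged in Iltifb. The 120 bases from coding position 98 to 217 (counted from 1 at the A of the start codon, from the NCBIM37 annotation) hold 5 of the 9, G106A, A150G, C188T, T213C and C217T (Il22 base first), and are shown to make this likeness visible; capitals mark the differing bases.
Il22: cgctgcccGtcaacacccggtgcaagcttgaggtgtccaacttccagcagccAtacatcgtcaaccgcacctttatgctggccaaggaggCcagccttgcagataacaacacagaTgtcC
Iltifb: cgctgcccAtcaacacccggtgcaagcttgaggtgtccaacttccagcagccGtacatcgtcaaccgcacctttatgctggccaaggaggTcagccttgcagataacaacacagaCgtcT
Il22 exceeded Iltifb in all 14 libraries. Iltifb was highest where Il22 was highest or close to it, at 0.85 FPKM in STAT6 KO and 0.794 FPKM in WT Th2 cells with the GATA3 vector, and at 0.864 FPKM in WT Th1 cells with the control vector and 0.433 FPKM with the T-bet vector. The sources used here do not say how Cufflinks divided shared reads, and values of either gene are uncertain.

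There were 4 libraries with Il22 at 1 FPKM or more, from both lineages and all with a vector. They were STAT6 KO and WT Th2 cells with the GATA3 vector, at 1.46 and 4.76 FPKM, and WT Th1 cells with the T-bet and the control vector, at 2.79 and 6.45 FPKM. STAT4 KO Th1 cells held far less: 0.0319 FPKM with the T-bet vector, against 2.79 FPKM in WT, and 0.32 FPKM with the control vector, against 6.45 FPKM in WT. Without a vector STAT4 KO Th1 cells held 0.0139 FPKM, against 0.413 and 0.13 FPKM in WT. A count of 3 fragments would give 0.0957 FPKM in STAT4 KO Th1 cells with the T-bet vector and 0.0837 FPKM without a vector. The values of 0.0319 and 0.0139 FPKM lay below these floors and are not measured levels. Il22 was lower in 4 of 4 pairs without STAT4, with bounds apart in 3, and the fitted difference of -1.36 ± 0.49 was not called (adjusted p = 0.243, limma).

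In Th2 cells with the control vector Il22 was at 0.21 FPKM in STAT6 KO and 0.138 FPKM in WT cells, so that the GATA3 vector libraries were higher in 2 of 2 pairs with bounds apart. The fitted difference for the GATA3 vector was 1.27 ± 0.60 (adjusted p = 0.648). With the T-bet vector Il22 was lower than with the control vector in 2 of 2 pairs (-0.25 ± 0.60, adjusted p = 1). The lineage difference was -1.07 ± 0.54 (adjusted p = 0.311), and in vector culture Il22 was higher by 0.95 ± 0.43 (adjusted p = 0.127). None of these was called. Il22 passed the filter only through vector cultures, as it was at most 0.413 FPKM in the libraries without a vector. Its difference in vector culture was thus tested on a gene admitted by the cultures where it was high, and no conclusion is drawn from it.

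Il23r, which encodes the receptor subunit that makes T cells responsive to IL-23, was at the edge of detection and seen in Th1 cells that had STAT4. In STAT4 KO Th1 cells the bounds correspond to 1 fragment with the T-bet vector and 1 with the control vector (0.0123 FPKM each), and Il23r was listed at 0 without a vector. In the Th1 libraries with STAT4 they correspond to 10 fragments in T-bet KO cells (0.0976 FPKM), 25 in WT Th1 replicate 1 (0.265 FPKM), 10 in replicate 2 (0.0831 FPKM), 21 in WT cells with the T-bet vector (0.256 FPKM) and 15 with the control vector (0.176 FPKM). Of the 6 Th2 libraries 5 listed it at 0, and WT Th2 cells with the control vector held 1 fragment (0.0129 FPKM). Summed, that is 2 fragments in the 3 STAT4 KO Th1 libraries, against 81 in the 5 Th1 libraries with STAT4. Its listed bounds were apart in 4 of 4 STAT4 pairs and in 3 of 3 lineage pairs. Where Il23r was listed at 0 these bounds were 0 to 0, so any partner with a lower bound above 0 counted as apart. A floor of 3 fragments is 0.0322 FPKM in STAT4 KO Th1 and 0.036 FPKM in WT Th2 cells without a vector. With these floors the pairs with WT Th1 replicate 2, whose lower bound was 0.0305 FPKM, are not apart. As Il23r never reached 1 FPKM it was not in the test.

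Ccr6, the receptor for CCL20 that guides Th17 cells to barrier tissue, could not be told from 0 by its listed bounds. It was at most 0.108 FPKM in Th2 cells and 0.111 FPKM in Th1 cells, listed at 0 in 6 of 14 libraries, and its lower bound was 0 in every library. A floor of 3 fragments gave another reading in some libraries. Without a vector, WT Th2 (0.108 against 0.053 FPKM) and STAT6 KO Th2 cells (0.0514 against 0.0337 FPKM) lay above it. So did WT (0.106 against 0.0519 FPKM) and STAT4 KO Th1 cells (0.111 against 0.0542 FPKM) with the control vector.

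**Figure D3:**
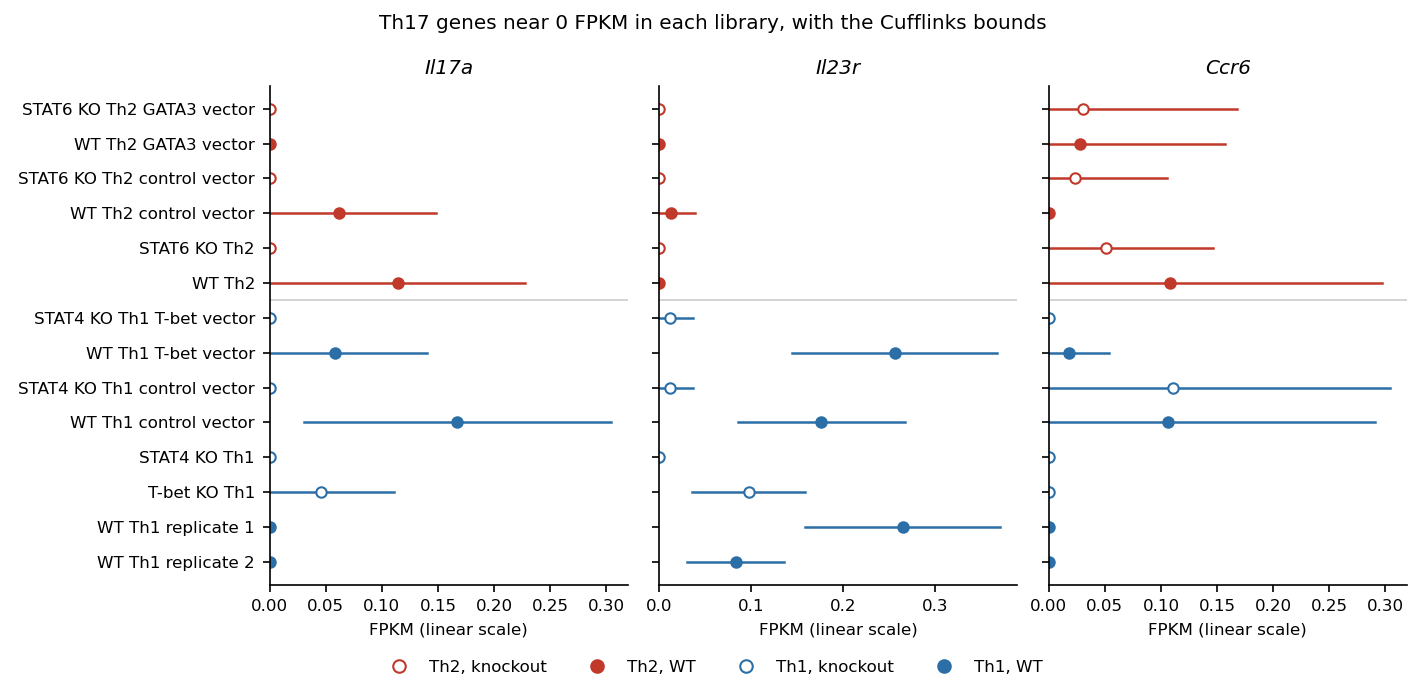
FPKM (x axis, linear) of Il17a, Il23r and Ccr6 in each library (y axis), with the Cufflinks bounds as lines; red is Th2, blue is Th1, open circles are knockout cells. Il23r lies between 0.0831 and 0.265 FPKM in the 5 Th1 libraries with STAT4 and at or below 0.0129 FPKM in the others.

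The members did not vary as a block. Over the 14 libraries, which share lineages and cultures, Pearson's r of log2(FPKM + 1) was 0.67 for Ahr with Il17f, 0.56 for Ahr with Il22 and 0.47 for Il17f with Il22, and -0.41 for Rora with Il17f, values that describe these libraries only. The genes whose pattern was most like that of Rora were Myo1e (r = 0.862), Il1rl2 (0.860) and Stx2 (0.849). For Ahr they were Lactb (0.947), Ammecr1l (0.945) and Tnfrsf10b (0.943). For Il17f they included the kinase gene Tec (0.961) and Ero1l (0.949). For Il22 they were AI836003 (0.910), Neu3 (0.892) and Xcr1 (0.868). Over the 12 libraries the genes closest to Ahr were others, Hist1h2bn (0.979), Ube4b (0.971) and Ssfa2 (0.968). Myo1e, Tec and AI836003 stayed closest to Rora, Il17f and Il22 there.

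Of 14 receptor and signal genes that act in the induction of Th17 cells, 12 were at 1 FPKM or more in all 14 libraries; Il1r1 reached that level in 3 libraries and Il21 in 7. Of the genes above it throughout, Stat3, which relays IL-6 and IL-23, lay between 29.9 and 114 FPKM, Jak2 between 42.6 and 377 FPKM and Il21r between 23.8 and 118 FPKM; Stat3 and Jak2 were left out of the test because their estimate failed in at least 1 library. In Th2 against Th1 cells 1 of 12 tested was called, Il6st, the shared gp130 receptor, which fell (-1.43 ± 0.28, adjusted p = 0.0302, limma); the median of the 12 was -0.07, against -0.04 over all genes tested. With the GATA3 vector 1 of 12 was called, Il1r1, the IL-1 receptor, which rose to 15.2 FPKM in STAT6 KO and 8.52 FPKM in WT Th2 cells, against 0.168 and 0.319 FPKM with the control vector (3.18 ± 0.39, adjusted p = 0.00731). Over all genes tested in vector culture 31.5% were called, 2599 higher and 906 lower, and the counts of list genes there are to be read against that share. Of the 12 tested genes of this list 2 rose and 4 fell, the largest being Il21 (-1.98 ± 0.55) and Il6ra (-1.30 ± 0.19).

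Of 12 transcription partners, all tested, 2 fell in Th2 against Th1 cells: Nfkbiz, whose product IκBζ acts with RORα, at -1.69 ± 0.22 (adjusted p = 0.00717) and Bhlhe40 at -1.45 ± 0.27 (adjusted p = 0.0271, limma). Bhlhe40 also fell without STAT4 (-1.52 ± 0.25, adjusted p = 0.0365), and Rbpj, the Notch effector, fell without STAT6 (-1.23 ± 0.22, adjusted p = 0.0437). The median of the 12 was -0.14 in Th2 against Th1 cells and -0.36 in STAT6 KO against WT cells, against -0.04 and 0.04 over all genes tested. Irf4, a factor Th17 cells need, was at 145 to 416 FPKM and Hif1a at 63.1 to 439 FPKM, neither called between lineages. In vector culture, with 31.5% of all genes called, 4 of 12 rose and 1 fell.

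Of 12 genes that restrain the Th17 programme, Tbx21 (-4.40 ± 0.25, adjusted p = 1.76e-04, limma) and Eomes (-1.31 ± 0.28, adjusted p = 0.0446) fell in Th2 against Th1 cells, and Tbx21 rose without STAT6 (3.31 ± 0.24, adjusted p = 8.68e-04), in the comparison in which Rora rose. Tbx21 was at 43.7 FPKM in STAT6 KO Th2 cells, against 3.61 FPKM in WT Th2 cells. Among 12 tested effector and surface genes, Il18rap (-3.30 ± 0.52, adjusted p = 0.0142) and Abcb1a (-0.93 ± 0.18, adjusted p = 0.0301) fell in Th2 cells (median of the 12 -0.78), and Il10 fell without STAT6 (-5.87 ± 0.80, adjusted p = 0.0141); in vector culture, with 31.5% of all genes called, 1 rose and 7 fell. The median of the 12 restraining genes was -0.55 in Th2 against Th1 cells. Of 13 tested ROR response and clock genes none was called in the lineage and knockout comparisons (median 0.09 in Th2 against Th1 cells), and 4 rose and 1 fell in vector culture, where 31.5% of all genes were called, with Npas2 at 1.68 ± 0.17 and Dbp at -1.47 ± 0.34.

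Most receptors of the IL-17 family were near 0. Il17ra, the common receptor, was at 22.4 to 49.3 FPKM throughout, while Il17rc, with which it forms the receptor for IL-17A and IL-17F, was at or below 0.11 FPKM. Il17rb, the receptor for IL-25, was at 2.25, 1.66 and 2.88 FPKM in the 3 WT Th2 libraries and at or below 0.0792 FPKM elsewhere. It thus passed the filter only through WT Th2 cells, and its calls are not independent of the filter. It was higher in Th2 cells (1.57 ± 0.17, adjusted p = 0.00307, limma) and lower without STAT6 (-1.62 ± 0.16, adjusted p = 0.00383). Traf3ip2, the adaptor of these receptors, fell in Th2 cells (-0.83 ± 0.16, adjusted p = 0.0333). Il23a, the IL-23 p19 subunit, was also lower in Th2 cells (-1.68 ± 0.30, adjusted p = 0.0214), at most 0.715 FPKM in Th2 cells and up to 6.48 FPKM in Th1 cells.

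**Figure D4:**
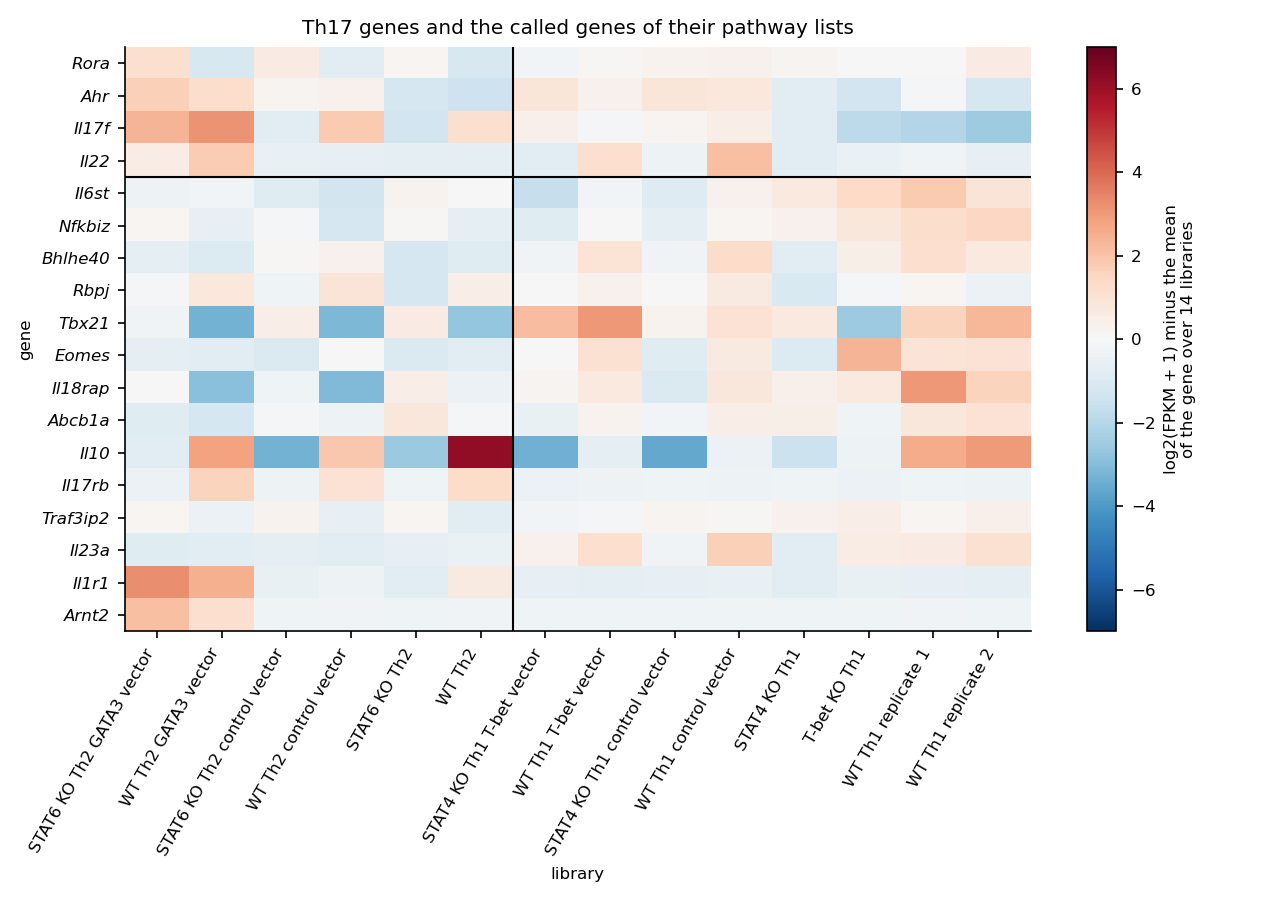
Colour gives log2(FPKM + 1) minus the mean of each gene over the 14 libraries, for the 4 tested Th17 genes (above the black line) and genes of their pathway lists called in a comparison other than vector culture (below it); columns are libraries, Th2 left of the vertical line. Rora is below its mean in the 3 WT Th2 libraries, where Il17f and Il17rb are above theirs.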

How the data were processed

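The deposited gene tables hold FPKM values that the authors computed with Cufflinks, with a lower and an upper bound, per the file headers. TopHat, Cufflinks and the genome build mm9 are named in the submitters' processing notes; the sources used here do not name versions, annotation or strand setting. Libraries were single reads from total RNA, per the labels' protocols. The tables give no read totals, so depth was read from the bounds: their width gives a number of fragments per value, and 66.7% to 77% of those below 30 came out whole within 0.02. The ChIP samples of the 38 in the series are not analysed here.

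From these values limma 3.58.1 in R 4.3.3 (lmFit, eBayes with trend) was run on log2(FPKM + 1), a scale that understates the change of low genes. The fit used the 11121 genes that reached 1 FPKM in 2 or more libraries, and all 14 libraries. Its additive terms were vector culture and lineage, loss of STAT6, STAT4 or T-bet, and the GATA3 and T-bet vectors. As 12 of 13 groups held 1 library, all share 1 estimate of the spread, which rests largely on departures from additivity. The 118 genes with a failed estimate in any library were left out. Interactions were fitted separately. The steps were tested on simulated data. Alternatives were a pseudocount of 0.1, no filter, upper-quartile and quantile scaling, 12 libraries, an interaction model and each library left out.

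The members, the pathway lists and the choice of 12 libraries were made with earlier results of these data known. All 7 members were described; from each list up to 4 called genes of largest change and up to 3 of highest mean were eligible to be named. Arnt, Cyp1a1, Nqo1, Il17rc and the marker genes were named outside that rule, after their values were seen. Some genes are not reported here. Promoter and transcript sequences came from RefSeq and GENCODE tables and were searched and aligned in Python 3.11.15 with Biopython 1.88. Floors count 3 fragments and, like the bounds, cover counting error only.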

Additional observations from a re-analysis of the deposited data

How the results depend on the processing

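Each fitted difference of Rora, Ahr, Il17f and Il22 was recomputed under every alternative, as was each count of members called. Of the 694 values, 607 kept their sign and side of the threshold or their count. Most of the differences were not called in the main fit and could lose no call, so this total says little about the calls. A call was lost in 28 values, all of Rora between lineages, Rora without STAT6 or Il17f in vector culture. Without the filter on low values no member was called between lineages (0) or without STAT6 (0), and 1, Ahr, in vector culture. The shares of all genes called there were 0.874%, 0.293% and 16.3%. With upper-quartile scaling, quantile normalization or 12 libraries 1 member was called in vector culture, beside 27.7%, 27.9% and 50.9% of all genes. Quantile normalization gave 2 between lineages, Rora and Il17f, beside 3.07% of all genes. The interaction model called 0 between lineages, 0 without STAT6 and 1 in vector culture, beside 1.04%, 0.261% and 19.5% of all genes. It has fewer residual degrees of freedom. When each library was left out, members called ranged over 0 to 2 between lineages, 0 to 1 without STAT6, 0 to 1 with the GATA3 vector and 1 to 2 in vector culture. The shares of all genes called ranged, in that order, over 0.998% to 6.67%, 0.135% to 2.72%, 0.297% to 2.85% and 18.6% to 51%. Ahr in vector culture was called under each of these alternatives.

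Differences that changed sign were not called in any fit. The interaction model gave -0.00 for Ahr without STAT4, 0.02 for Il22 without STAT6, 0.11 for Il22 with the T-bet vector and -0.30 for Rora with the GATA3 vector. Il17f without T-bet was 0.11 with a pseudocount of 0.1 and 0.09 after quantile normalization. With each library left out, the range was -0.30 to 0.66 for Rora with the GATA3 vector, -0.00 to 0.36 for Ahr without STAT4, -0.86 to 0.02 for Il22 without STAT6 and -0.43 to 0.28 for Il17f without T-bet. With the T-bet vector it was -0.53 to 0.02 for Ahr, -0.06 to 0.74 for Il17f and -0.63 to 0.42 for Il22. The cause was not tested. No paired analysis was possible because the RNA groups compared share fewer than 2 replicate numbers. Without WT Th1 replicate 2 the share of all genes called became 6.67% between lineages, 2.72% without STAT6, 3.53% without STAT4, 48.7% without T-bet, 2.85% with the GATA3 vector and 51% in vector culture. Depth limits Il17a and Ccr6, and Il23r outside the 5 Th1 libraries with STAT4. It also limits Il22, which lay below its floor in STAT4 KO Th1 cells without a vector and with the T-bet vector. With 1 library in nearly every group, differences between cultures and between conditions cannot be told apart.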

Other observations

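Ccl20, the ligand of CCR6, was at 4.90 to 9.37 FPKM in 6 vector libraries, which included all 4 of Th1 cells and both STAT6 KO Th2 libraries. It was at 0.507 FPKM with the control vector and 0.829 FPKM with the GATA3 vector in WT Th2 cells, and at or below 0.298 FPKM in the 6 libraries without a vector. Its receptor gene Ccr6 stayed at or below 0.111 FPKM.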
